A study of Mus musculus with 14 samples.

Results

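Genes of the fibroblast extracellular matrix, 48 in number, were followed through reprogramming in 4 RNA libraries that list 22026 genes. The members were a fixed list of collagens, elastic fibre and adhesive glycoproteins, proteoglycans, matricellular proteins, cross-linking and procollagen processing proteins, and metalloproteinases with their inhibitors. The values are FPKM, a measure that divides fragment counts by transcript length and library size, and were found for 47 of them, and Col6a3 was not analysed here. The cells were fibroblasts from mouse tails, with wildtype and AID-null as genotype labels. Each genotype gave 1 RNA library of untreated fibroblasts and 1 of a bulk culture reprogrammed for 3 weeks by ectopic Oct4, Sox2, Klf4 and cMyc. The cultures that got the factors were therefore compared with untreated cells and not with a mock-treated culture. The sources used here give neither strain, age and number of animals nor the way the factors were delivered. With 1 library per group there were no replicates, so no error, test or p-value goes with any value, and every difference is between libraries. Paired values are given with the wildtype library first and the library labelled AID-null after it.

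The extracellular matrix is the secreted scaffold of connective tissue, and fibroblasts are its main source in skin and tendon. Fibrillar collagens give tensile strength after their propeptides are cut off and their chains are cross-linked, elastic fibres give recoil, and small leucine-rich proteoglycans such as decorin and lumican bind collagen and set fibril size. Matricellular proteins signal to cells rather than bear load. When fibroblasts are turned into pluripotent cells they pass through a mesenchymal-to-epithelial transition, in which stromal genes are switched off.

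The sex-linked genes were read first, and the libraries are called by their genotype label throughout. Xist was at 456 and 149 FPKM in the wildtype libraries and at 0.99 and 1.78 FPKM in those labelled AID-null, while Y-linked Eif2s3y was at 0 in both wildtype libraries and at 184 and 274 FPKM in the others. The genotype labels and the sex-linked genes cannot be told apart, which bears most directly on the X-linked members Bgn and Timp1. Each library listed 13381 to 14668 genes with at least 1 FPKM. Ratios of low FPKM values gave no common step between libraries, so the read depth behind a value is unknown. In a bulk culture, fewer cells that make a transcript and less transcript per cell cannot be told apart.

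Promoter sequences show what the members have, and do not have, in common at their start sites. RefSeq (build GRCm38.p6) gave windows for 32 of the 48 members, 38 windows in all, each from 250 bases before to 50 bases after a start. Both strands were searched for TATAAA (the TATA box), for CCAAT (the binding site of NF-Y), for GGGCGG (a binding site of Sp1), for TGANTCA (the AP-1 site) and for CAGAC (a Smad-binding sequence). TATAAA was found in 21.1% of member windows and in 13.6% of all 32851 windows, CCAAT in 36.8% and 37.4%, GGGCGG in 60.5% and 35.7%, TGANTCA in 5.26% and 7.81%, and CAGAC in 55.3% and 49.6%. Among windows of genes in the RNA files GGGCGG was in 48.6% and TATAAA in 12.2%. These counts take a match anywhere in the window. On the gene's own strand, TATAAA beginning 40 to 20 bases before the start was in 1 of 38 member windows (2.63%). That was near the 1.99% of all windows and the 2.48% of windows of genes in the RNA files. The median ratio of observed to expected CpG was 0.433 in member windows, 0.384 in all windows and 0.600 in windows of genes in the RNA files. Such matches describe letters and not bound sites. The 150 bases before the start are given below for Col1a2 (chr6:4505468-4505617, plus strand) and Col3a1 (chr1:45311388-45311537, plus strand), the chains of the main fibrillar collagens that have a window. Those of Col6a1 (chr10:76726045-76726194, minus strand) and Thbs4 (chr13:92794819-92794968, minus strand) are shown because these genes differed most between the 3-week cultures on the log2(FPKM + 1) scale. Those of Spp1 (chr5:104434961-104435110, plus strand, the outermost of its starts) and Mmp3 (chr9:7445672-7445821, plus strand) are shown because these genes were higher at 3 weeks than in fibroblasts. Capitals mark the searched sequences, written as their reverse complement (such as GTCTG for CAGAC) where the match lies on the other strand.

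Col1a2: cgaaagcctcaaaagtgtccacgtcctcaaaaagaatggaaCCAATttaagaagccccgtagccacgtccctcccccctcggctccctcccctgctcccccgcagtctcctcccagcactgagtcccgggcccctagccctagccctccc

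Col3a1: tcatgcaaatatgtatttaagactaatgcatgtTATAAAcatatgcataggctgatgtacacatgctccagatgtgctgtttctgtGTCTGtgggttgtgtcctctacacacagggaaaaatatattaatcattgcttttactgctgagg

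Col6a1: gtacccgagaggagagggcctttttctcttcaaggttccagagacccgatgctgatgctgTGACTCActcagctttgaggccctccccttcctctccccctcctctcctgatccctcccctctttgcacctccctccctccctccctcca

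Thbs4: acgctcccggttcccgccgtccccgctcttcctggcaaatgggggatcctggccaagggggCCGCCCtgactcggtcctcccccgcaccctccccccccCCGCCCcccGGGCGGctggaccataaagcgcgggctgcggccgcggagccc

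Spp1: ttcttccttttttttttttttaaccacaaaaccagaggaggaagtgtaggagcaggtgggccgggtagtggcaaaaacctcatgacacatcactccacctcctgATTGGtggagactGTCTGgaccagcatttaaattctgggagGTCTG

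Mmp3: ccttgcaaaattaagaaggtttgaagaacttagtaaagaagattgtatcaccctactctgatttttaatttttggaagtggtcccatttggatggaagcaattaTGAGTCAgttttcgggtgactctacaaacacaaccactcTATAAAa

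No searched sequence was in all 6 stretches. TATAAA began 117 bases before the Col3a1 start and 7 bases before the Mmp3 start, both outside the range of 40 to 20 bases. CCAAT began 109 bases before the Col1a2 start and, on the other strand, 46 bases before the Spp1 start. TGANTCA was found in 2 member windows, those of Col6a1, 90 bases before the start, and Mmp3, 46 bases before it. At 3 weeks Col6a1 was below and Mmp3 above the fibroblast level. The Thbs4 stretch held GGGCGG 3 times, at 89, 51 and 42 bases before the start.

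Matrix genes were among the most abundant transcripts of both fibroblast libraries. Together the 47 members took 12.2% of all FPKM in wildtype and 13.4% in AID-null-labelled fibroblasts, and 9 of the 10 genes of highest FPKM in each library were members. Sparc, a collagen-binding matricellular protein, was the highest of all genes, at 29475 and 36969 FPKM. Col1a1 and Col1a2, the chains of type I collagen, ranked next in both. No member was below 26.5 FPKM in wildtype or 39.1 FPKM in AID-null-labelled fibroblasts, the values of the multiplexin collagen Col15a1. At 3 weeks the members took 2.29% of all FPKM in the culture from wildtype cells and 6.48% in the AID-null-labelled one. Of those sums, 50.9% and 47.4% came from Spp1 alone, and without it the shares were 1.12% and 3.41%, against 11.5% and 12.7% in the fibroblasts.

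**Figure D1:**
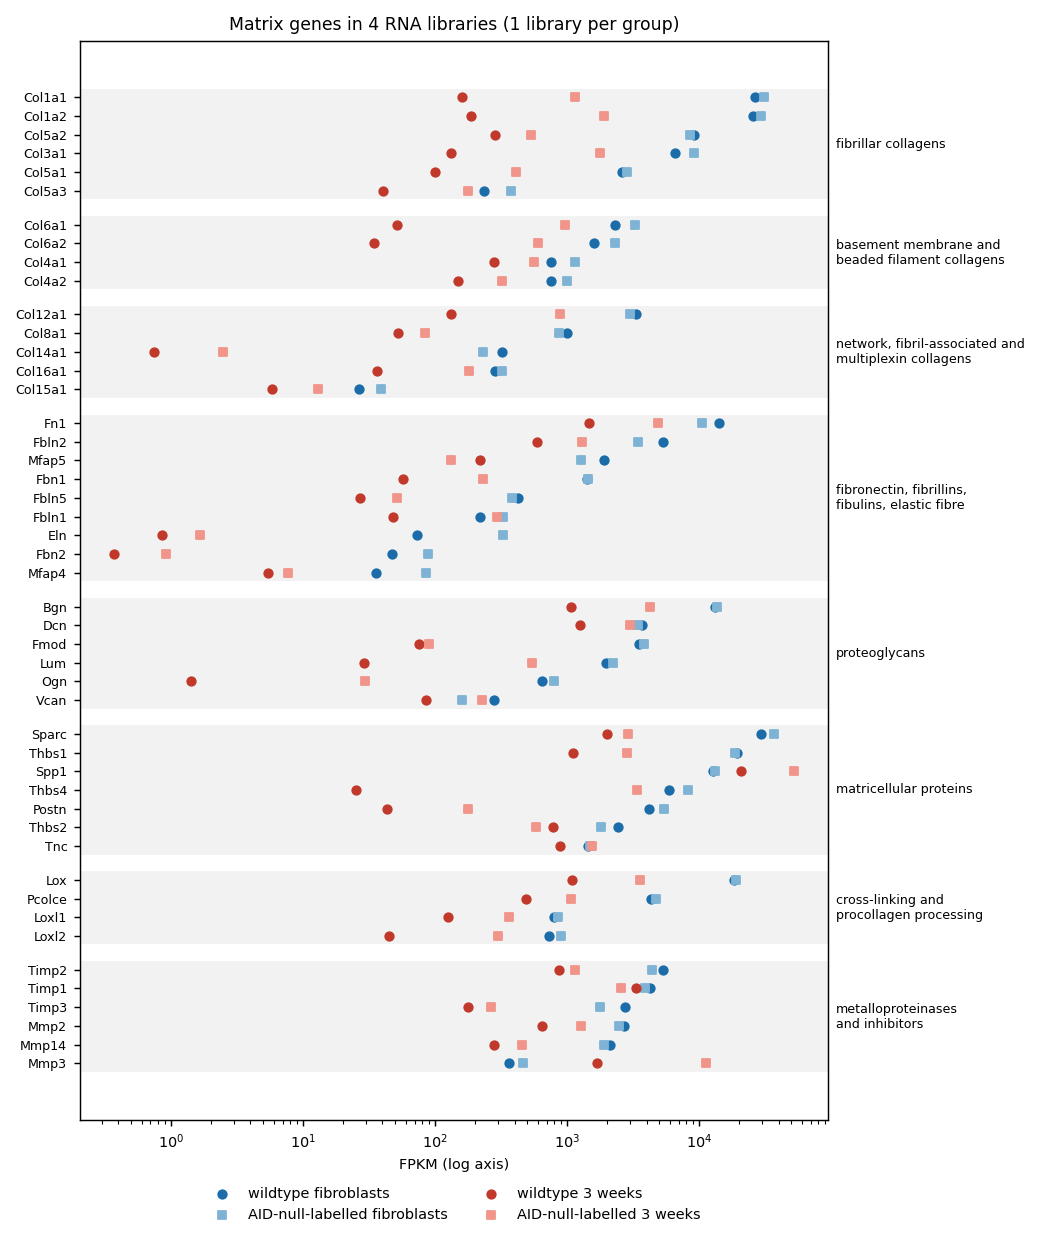
FPKM (log axis) of the 47 listed members in the 4 RNA libraries, grouped by role, with 1 point per library and no error bars because each group had 1 library. Fibroblast libraries (blue) lie to the right of the 3-week libraries (red) for most members, Mmp3 and Spp1 lie the other way, and the AID-null-labelled 3-week culture lies between the wildtype culture and the fibroblasts for most genes.

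Each 3-week culture was set against the fibroblasts of its own genotype. Differences are on the log2(FPKM + 1) scale, and those of 1 or more in size were counted, leaving out genes under 1 FPKM in both libraries compared. This scale understates the change of low genes. In the wildtype libraries 43 of 47 members were lower at 3 weeks and 1 was higher, where 17.7% of all genes compared were lower and 27.0% higher. The median member differed by -3.87 and the median gene by 0.16. In the AID-null-labelled libraries 38 of 47 members were lower and 2 higher, where 17.6% of all genes were lower and 21.3% higher, and the medians were -1.94 and -0.05. The member higher in both was Mmp3, and Spp1 was the other one in the AID-null-labelled libraries.

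Fibrillar collagens were lower in all 6 cases in both genotypes. Col1a1 stood at 26383 FPKM in wildtype and 30837 FPKM in AID-null-labelled fibroblasts, and at 159 and 1143 FPKM at 3 weeks. Its partner chain Col1a2 had 25482 and 29183 FPKM in fibroblasts against 187 and 1900 FPKM at 3 weeks. Col3a1, the chain of the type III collagen that mixes with type I in skin, had 6612 and 9146 FPKM in fibroblasts against 132 and 1769 FPKM at 3 weeks. All 3 were far below the fibroblast libraries in both cultures, and the AID-null-labelled culture held 7.17, 10.2 and 13.4 times the FPKM of the wildtype one. Of the type V collagen chains, which start fibril assembly, Col5a2 differed less between the cultures, at 284 and 529 FPKM, after 9151 and 8473 FPKM in fibroblasts. Col5a1 stood at 99.5 and 407 FPKM at 3 weeks, and Col5a3, the lowest of the group in fibroblasts at 233 and 377 FPKM, at 40.1 and 179 FPKM.

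Basement membrane and beaded filament collagens were also lower in all 4 measured cases in both genotypes, by very different amounts. Col6a1, a chain of the type VI collagen that forms beaded filaments around cells, had 2321 and 3263 FPKM in fibroblasts against 51.3 and 968 FPKM at 3 weeks. Col6a2 followed it closely, with 1598 and 2291 FPKM in fibroblasts against 34.4 and 600.1 FPKM at 3 weeks. Col4a1, a chain of the type IV collagen of basement membranes, had 755 and 1154 FPKM in fibroblasts against 280 and 560 FPKM at 3 weeks. Type IV chains thus kept 37.0% (Col4a1) and 19.9% (Col4a2) of their fibroblast FPKM in the wildtype culture, where type VI chains kept 2.21% (Col6a1) and 2.15% (Col6a2). In the AID-null-labelled culture these shares lay closer together, at 48.5% and 32.3% for type IV and 29.7% and 26.2% for type VI. Col4a2 stood at 150 and 321 FPKM at 3 weeks, after 755 and 993 FPKM.

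Chains of one collagen could be compared directly because FPKM is per length, and this comparison was chosen after the values were seen. The FPKM ratio of Col6a1 to Col6a2 was 1.45 and 1.42 in the fibroblast libraries and 1.49 and 1.61 in the 3-week cultures, wildtype first. The ratio of Col1a1 to Col1a2 was 1.04 and 1.06 in fibroblasts and 0.853 and 0.601 at 3 weeks. Col3a1 relative to Col1a1 went from 0.251 and 0.297 to 0.826 and 1.55, so that Col3a1 was listed above Col1a1, but not above Col1a2, in the AID-null-labelled culture. The ratio of Col4a1 to Col4a2 was 1.00 and 1.16 in fibroblasts and 1.87 and 1.75 at 3 weeks. These last genes lie head to head on opposite strands with RefSeq starts 21 bases apart on chromosome 8. The sources used here do not say whether reads were counted by strand.

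Network, fibril-associated and multiplexin collagens were lower in 5 of 5 cases in wildtype libraries and 4 of 5 in the AID-null-labelled libraries. Col12a1, a fibril-associated collagen, was the highest of them in fibroblasts, at 3328 and 3011 FPKM, and stood at 131 and 881 FPKM at 3 weeks. Col16a1 was the exception, going from 287 to 36.1 FPKM in the wildtype but from 321 to 182 FPKM in the AID-null-labelled libraries, a difference of -0.81. Col14a1, another fibril-associated collagen, came close to 0 in both cultures, at 0.74 and 2.49 FPKM after 320.0 and 231 FPKM. Col8a1, a network collagen, stood at 999 and 875 FPKM in fibroblasts and at 52.9 and 83.5 FPKM at 3 weeks.

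Of the adhesive and elastic fibre genes, all 9 were lower in the wildtype comparison and 8 of 9 in the AID-null-labelled one. Fn1, which encodes fibronectin, was the highest, with 14056 and 10582 FPKM in fibroblasts against 1470 and 4848 FPKM at 3 weeks. Fbln1, encoding a fibulin that binds fibronectin and basement membrane proteins, was the exception, with 220.01 and 330 FPKM in fibroblasts and 47.7 and 297 FPKM at 3 weeks, a difference of only -0.15 in the AID-null-labelled libraries. Eln, which encodes elastin, had 73.3 and 329 FPKM in fibroblasts against 0.85 and 1.66 FPKM at 3 weeks. Fbn1 and Fbn2 encode fibrillins, the microfibril proteins on which elastin is laid down. Fbn1 stood at 1425 and 1440 FPKM in fibroblasts and at 57.2 and 232 FPKM at 3 weeks, whereas Fbn2 was below 1 FPKM in both cultures. Elastin and fibrillin-2 transcripts were thus close to 0 in both cultures while fibronectin transcripts were at 1470 FPKM or more.

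Proteoglycan genes were lower in 6 of 6 cases in wildtype libraries and 4 of 6 in the AID-null-labelled libraries. Bgn, encoding the small leucine-rich proteoglycan biglycan, was the highest in fibroblasts, at 13237 and 13753 FPKM, and stood at 1070 and 4210 FPKM at 3 weeks. Lum, encoding lumican, had 1963 and 2208 FPKM in fibroblasts against 29.2 and 545 FPKM at 3 weeks. Ogn, encoding osteoglycin, kept the smallest share of any member in the wildtype culture, 0.221%, going from 644 to 1.42 FPKM, and stood at 29.3 FPKM in the AID-null-labelled culture after 800.3 FPKM. Dcn and Vcan behaved otherwise. Dcn, encoding decorin, stood at 1246 and 2992 FPKM at 3 weeks after 3678 and 3472 FPKM, and Vcan, the large aggregating proteoglycan versican, at 85.2 and 227 FPKM after 281 and 159 FPKM. Fmod, encoding fibromodulin, was low in both cultures, at 76.0 and 90.3 FPKM after 3508 and 3826 FPKM. The FPKM ratio of Fmod to Lum, chosen after the values were seen, was accordingly 1.79 and 1.73 in fibroblasts, 2.60 in the wildtype culture and 0.165 in the AID-null-labelled culture.

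Matricellular genes held both the largest genotype difference of the set and an increase. Thbs4, encoding thrombospondin-4, a protein abundant in tendon, had 5882 and 8201 FPKM in fibroblasts against 25.03 and 3395 FPKM at 3 weeks. It kept 0.426% and 41.4% of its fibroblast FPKM. The related genes did not show this, with Thbs1 at 1114 and 2837 FPKM at 3 weeks after 19392 and 18637 FPKM, and Thbs2 at 780.1 and 577 FPKM after 2429 and 1793 FPKM. Thbs2 kept 32.1% and 32.2%, the closest agreement between genotypes of any member. Postn, encoding periostin, a partner of fibrillar collagen, stood at 4167 and 5383 FPKM in fibroblasts and at 43.6 and 177 FPKM at 3 weeks. Spp1, encoding osteopontin, a secreted integrin ligand also made by macrophages and by pluripotent cells, had 12777 and 13157 FPKM in fibroblasts against 20897 and 52434 FPKM at 3 weeks, and was the highest of all genes in both cultures. Tnc, encoding tenascin-C, stood at 1433 and 1485 FPKM in fibroblasts and at 889 and 1535 FPKM at 3 weeks. Sparc stood at 2016 and 2912 FPKM at 3 weeks.

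Cross-linking and procollagen processing genes were lower in all 4 cases in both genotypes. Lox, encoding the lysyl oxidase that cross-links collagen and elastin, was the highest, with 18426 and 19049 FPKM in fibroblasts against 1093 and 3595 FPKM at 3 weeks. Loxl2, a related oxidase, differed most between the cultures, at 44.7 and 302 FPKM after 725 and 892 FPKM. Loxl1 stood at 126 and 361 FPKM at 3 weeks. Pcolce, which enhances cleavage of the procollagen propeptide, stood at 4343 and 4715 FPKM in fibroblasts and at 486 and 1064 FPKM at 3 weeks.

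Metalloproteinases and their inhibitors were the most divided group. Mmp3, encoding stromelysin-1, a secreted protease of matrix proteins, had 366 and 463 FPKM in fibroblasts against 1672 and 11307 FPKM at 3 weeks. It was the only member besides Spp1 above its fibroblast level in both cultures. Mmp2 and Mmp14, which encode gelatinase A and the membrane-bound protease that activates it, were below the fibroblast level in both. Mmp2 had 2712 and 2468 FPKM in fibroblasts against 647 and 1275 FPKM at 3 weeks, and Mmp14 had 2129 and 1909 FPKM in fibroblasts against 277 and 459 FPKM at 3 weeks. Of the inhibitors, Timp1 changed least, with 4212 and 3878 FPKM in fibroblasts against 3299 and 2553 FPKM at 3 weeks. Timp2 was the highest in fibroblasts, at 5363 and 4427 FPKM, and stood at 870.0 and 1157 FPKM at 3 weeks, and Timp3 was at 179 and 267 FPKM after 2747 and 1779 FPKM. The FPKM ratio of Mmp3 to Timp1, chosen after the values were seen, was 0.0869 and 0.120 in fibroblasts, 0.507 in the wildtype culture and 4.43 in the AID-null-labelled culture.

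The share of its fibroblast FPKM that a gene kept at 3 weeks differed widely between members of one library. In the wildtype libraries it ran from 0.221% (Ogn) to 457% (Mmp3) with a median of 6.84% over 47 members, and in the AID-null-labelled libraries from 0.504% (Eln) to 2440% (Mmp3) with a median of 26.1%. The middle range, from the first to the third quartile, was 2.19% to 18.5% and 9.93% to 44.2%. Over all genes with at least 5 FPKM in fibroblasts the medians were 96.3% and 86.1%. Members under 5% numbered 17 in wildtype libraries and 7 in the AID-null-labelled libraries. Genes under 5% were not counted over all genes, so these numbers have no background to be read against. The order of the members was similar in both genotypes (Spearman's rho 0.77 and Pearson's r 0.80 on log10 shares, across 47 genes that share a library on each axis and are not independent). Without Spp1 and Mmp3 Pearson's r was 0.73.

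**Figure D2:**
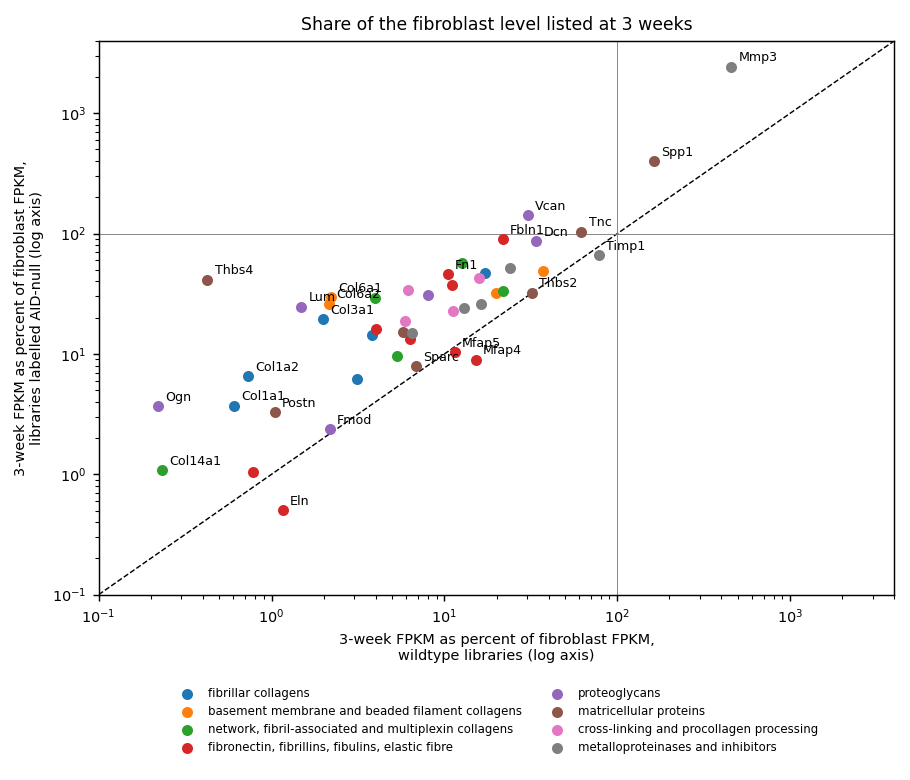
FPKM at 3 weeks as a percent of fibroblast FPKM for 47 members, wildtype libraries on the horizontal and AID-null-labelled libraries on the vertical axis (both log), 1 point per gene coloured by role; the dashed line marks equal shares and grey lines mark 100%. Points lie above the dashed line for 43 members, Thbs4 (0.426% and 41.4%) lies farthest from it, and Eln, Mfap4, Mfap5 and Timp1 lie below it. The same count was not made over all genes.

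The genotype labels were then compared before reprogramming. Fibroblast libraries differed little in the members. Of 47 members 2 were higher in the library labelled AID-null and 0 lower, where 4.26% of all genes compared were higher and 1.34% lower, so the members' share, 4.26%, equalled the background. The median member differed by 0.11 and the median gene by -0.03. The members past the threshold were the elastic fibre genes Eln, at 73.3 and 329 FPKM, and Mfap4, which encodes a microfibril-associated protein, at 35.6 and 86.0 FPKM. Mfap4 stood at 5.39 and 7.68 FPKM at 3 weeks. Macrophage markers were higher in the AID-null-labelled fibroblasts in 11 of 12 cases, and their part in these values was not tested. Fbn2, another elastic fibre gene, differed by 0.87, at 47.6 and 87.9 FPKM, and Vcan by -0.82.

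At 3 weeks most matrix genes were higher in the culture labelled AID-null. Of 46 members compared 30 were higher and 0 lower, where 9.76% of all genes were higher and 11.5% lower, and Fbn2 was under 1 FPKM in both cultures. The median member differed by 1.34 and the median gene by -0.18. Scaling by the upper quartile or the median of ratios turned the balance over all genes, to 12.2% higher and 8.61% lower or 12.6% and 7.89%, and gave 34 members higher and 0 lower under either. Fibrillar collagens were higher in 5 of 6 cases, basement membrane and beaded filament collagens in 3 of 4, and the other collagens in 4 of 5. Adhesive and elastic fibre genes were higher in 4 of 8, proteoglycans in 5 of 6 and matricellular genes in 4 of 7. Cross-linking and procollagen processing genes were higher in 4 of 4, and metalloproteinases and inhibitors in 1 of 6. Macrophage markers were also higher in that culture, in 10 of 12 cases, with summed FPKM of 160 and 1264, and other fibroblast markers in 8 of 16. Their part in the matrix values was not tested.

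The size of that difference varied widely between members. Thbs4 was 136 times higher in the AID-null-labelled culture, Ogn 20.6, Col6a1 18.9, Lum 18.7 and Col6a2 17.4 times. Sparc and Fmod, both more abundant than Lum in fibroblasts, were 1.44 and 1.19 times higher. The members below 1 were Thbs2 at 0.739, Timp1 at 0.774 and Mfap5, encoding a microfibril-associated glycoprotein, at 0.605 times, with Mfap5 at 219 and 132 FPKM at 3 weeks after 1906 and 1283 FPKM. Several members lay at the threshold of 1. Col4a1 (0.999), Mmp2 (0.98), Fbln5 (0.90) and Col5a2 (0.89) were just below it and passed it under either scaling. Col14a1 (1.00), Col15a1 (1.05), Col4a2 (1.09), Pcolce (1.13) and Fbln2 (1.14) were just above it. Of these, Fbln2, a fibulin gene, had 5354 and 3450 FPKM in fibroblasts against 589 and 1299 FPKM at 3 weeks. Fbln5, whose product helps assemble elastic fibres, had 428 and 384 FPKM against 27.1 and 51.3 FPKM, and Col15a1 stood at 5.81 and 13.1 FPKM at 3 weeks.

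**Figure D3:**
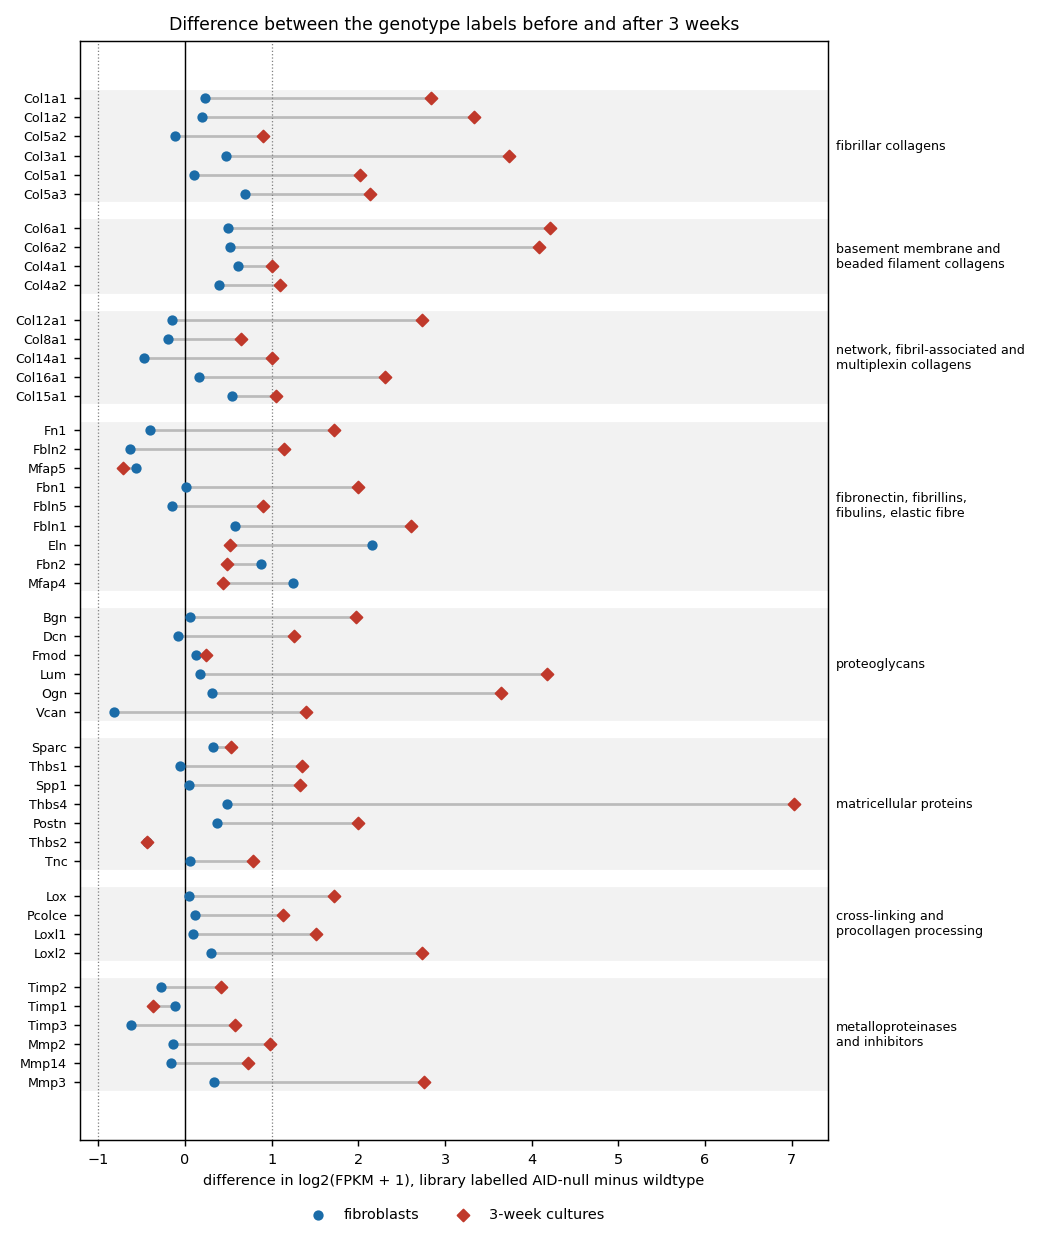
Difference in log2(FPKM + 1), library labelled AID-null minus wildtype, for 47 members in fibroblasts (blue circles) and 3-week cultures (red diamonds), 1 value per gene; dotted lines mark -1 and 1. Most diamonds lie to the right of the circles and Thbs4 reaches 7.03, while Eln, Fbn2, Mfap4, Mfap5 and Timp1 lie the other way, and the Thbs2 values (-0.44 in fibroblasts, -0.43 at 3 weeks) cover each other.

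Set against each other, the reprogramming changes differed by at least 1 in 32 of 47 members toward a higher value in the AID-null-labelled libraries and in 1 member, Eln, the other way (-1.63). In Spp1 and Mmp3, which were above the fibroblast level in both cultures, this was a larger gain, and Vcan was below that level in the wildtype culture and above it in the other. Over all genes 9.68% differed in the first direction and 13.9% in the second, which became 11.3% and 11.5% under upper-quartile and 12.3% and 10.4% under median-of-ratios scaling. The median member differed by 1.42 and the median gene by -0.18. Values were above 0 for 42 of 47 members and for 6333 of 15624 genes. This contrast uses the same 4 libraries as the comparisons above and adds no independent evidence. Thbs4 (6.55), Lum (4.01), Col6a1 (3.72), Col6a2 (3.57) and Ogn (3.33) had the largest values.

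Other matrix genes were read the same way, from lists chosen with earlier results of these data known. Of 18 other elastic fibre and small proteoglycan genes 17 were lower in wildtype libraries and 13 in the AID-null-labelled comparison, and 13 of 16 were higher in the AID-null-labelled culture than in the wildtype one, with medians of -4.05, -2.09 and 1.98. These were 94.4%, 72.2% and 81.25% of those compared, against 17.7%, 17.6% and 9.76% of all genes. Aspn, encoding asporin, a small leucine-rich proteoglycan close to decorin, had 691 and 816 FPKM in fibroblasts against 1.54 and 84.4 FPKM at 3 weeks. Efemp1, encoding fibulin-3, went from 268 to 13.9 FPKM in the wildtype but stood at 201 and 260 FPKM in the AID-null-labelled libraries. Srpx, a sushi-repeat protein gene, stood at 2.41 and 43.8 FPKM at 3 weeks.

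Collagen folding and processing genes were lower in 21 of 25 cases in wildtype libraries and 15 of 25 in the AID-null-labelled libraries, with medians of -1.85 and -1.09. These were 84.0% and 60.0%, against 17.7% and 17.6% of all genes. Genes of this list kept more of their level than the fibrillar collagens. The median share was 22.9% over 23 genes and 41.6% over 24, against 2.55% and 10.5% over the 6 fibrillar collagens. The gap was smaller for the other member collagens. Basement membrane and beaded filament collagens kept medians of 11.0% and 31.0%, and network, fibril-associated and multiplexin collagens 5.29% and 29.3%. Serpinh1, the collagen-specific chaperone, kept 12.3% and 12.7%, at 756 and 900 FPKM after 6147 and 7099 FPKM. The genes with the largest differences between the cultures were P4ha3, a prolyl hydroxylase subunit (7.22 and 36.8 FPKM), Adamts2, which removes the procollagen N-propeptide (19.9 and 92.9 FPKM), and Leprel2, a prolyl 3-hydroxylase gene (60.6 and 215 FPKM). Of the 25 genes 7 were higher and 1 lower in the AID-null-labelled culture (28.0% and 4.00%, against 9.76% and 11.5% of all genes).

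In laminin genes and the remaining collagen chains the share of higher genes was near that over all genes in the wildtype comparison (27.0%), at 28.6% and 31.2%. The share of lower genes was above that over all genes (17.7%), at 28.6% and 43.75%. Of 14 laminin and related genes compared, 4 were higher and 4 lower at 3 weeks in the wildtype, and 5 were higher and 2 lower in the AID-null-labelled libraries, with medians of -0.11 and 0.65. The AID-null-labelled shares were 35.7% higher and 14.3% lower, against 21.3% and 17.6% of all genes. The genes named here were chosen after their values were seen. Lama5, a laminin chain of epithelia, had 8.96 and 17.1 FPKM in fibroblasts against 122 and 172 FPKM at 3 weeks, and Lama1, a chain of the embryonic basement membrane, had 4.90 and 8.45 FPKM in fibroblasts against 44.4 and 90.8 FPKM at 3 weeks. Lama4, a chain of mesenchymal and vascular laminin, had 221 and 216 FPKM in fibroblasts against 36.0 and 121 FPKM at 3 weeks. Among 24 other collagen chains, of which 16 could be compared, 7 were lower and 5 higher in the wildtype. In the AID-null-labelled libraries 8 of 17 were lower and 5 higher (47.1% and 29.4%, against 17.6% and 21.3% of all genes). Between the 3-week cultures 7 of 14 laminin and related genes were higher in the AID-null-labelled one and 0 lower. Of 16 other collagen chains 7 were higher there and 3 lower, where 9.76% of all genes were higher and 11.5% lower. Col11a1, which forms fibrils with type V collagen, had 303 and 515 FPKM in fibroblasts against 3.76 and 18.9 FPKM at 3 weeks.

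Receptors, proteases and TGF-beta genes are read against the shares over all genes, 17.7% lower and 27.0% higher in wildtype and 17.6% and 21.3% in AID-null-labelled libraries. Of 26 receptors compared 16 were lower and 3 higher in the wildtype, and of 27 in the AID-null-labelled libraries 9 were lower and 3 higher, with medians of -1.21 and -0.72. The lower genes were 61.5% and 33.3% of those compared. Itga11, the collagen-binding integrin chain of fibroblasts, had 257 and 341 FPKM in fibroblasts against 1.68 and 75.9 FPKM at 3 weeks. Itgb4, the laminin-binding integrin chain of epithelia, was higher at 3 weeks, with 6.15 and 4.64 FPKM in fibroblasts against 69.6 and 61.9 FPKM at 3 weeks. Of 21 other proteases and inhibitors 14 were lower and 3 higher in the wildtype, and 6 and 2 in the AID-null-labelled libraries, with medians of -1.77 and -0.22 and shares lower of 66.7% and 28.6%. Mmp10, encoding stromelysin-2, the closest relative of Mmp3, had 15.9 and 12.9 FPKM in fibroblasts against 672 and 1276 FPKM at 3 weeks. Plat, encoding tissue plasminogen activator, stood at 24.0 and 405 FPKM at 3 weeks after 706 and 839 FPKM. Of 17 genes of TGF-beta signalling, a main inducer of matrix genes, 10 were lower and 1 higher in the wildtype, and 5 and 1 in the AID-null-labelled libraries, with medians of -1.55 and -0.58 and shares lower of 58.8% and 29.4%. Tgfbi, a matrix protein gene induced by TGF-beta, stood at 154 and 166 FPKM in fibroblasts and at 23.1 and 238 FPKM at 3 weeks, the largest difference between cultures in its list. Tgfbr1, a receptor gene, went the other way, at 98.8 and 48.1 FPKM. Of 27 receptors 8 were higher and 0 lower in the AID-null-labelled culture (median 0.56). Of 21 proteases and inhibitors 12 were higher and 3 lower (median 1.10), and of 17 TGF-beta genes 7 and 1 (median 0.30). Over all genes 9.76% were higher and 11.5% lower.

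**Figure D4:**
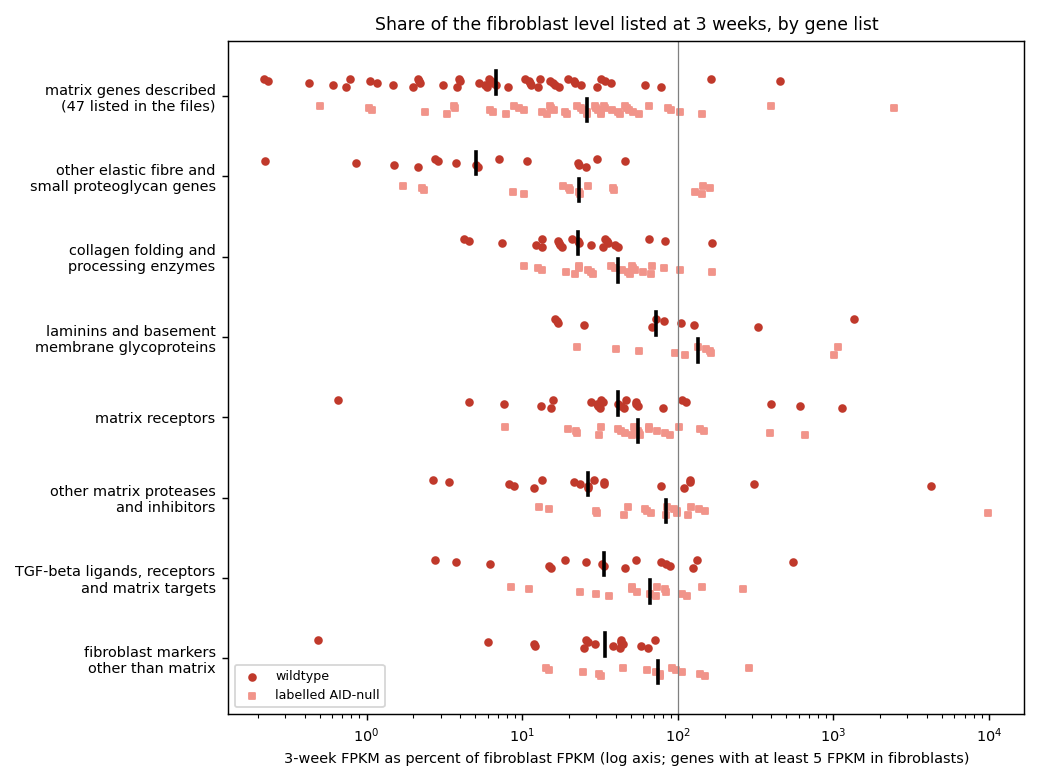
FPKM at 3 weeks as a percent of fibroblast FPKM (log axis) for genes with at least 5 FPKM in the fibroblast library, by gene list, wildtype (dark circles) and AID-null-labelled (light squares), with black bars at the list medians. Matrix members have medians of 6.84% and 26.1%, fibroblast markers (15 genes outside the matrix and Dpt) 33.9% and 74.6%; genes at 0 FPKM at 3 weeks cannot be drawn on the log axis.

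A list of 16 fibroblast markers, all outside the members, kept a larger median share of their level than the members did. The list holds 1 matrix protein gene, Dpt. Its median share was 33.9% in wildtype libraries and 74.6% in the AID-null-labelled libraries, and all 16 were above 0 in every library. In the AID-null-labelled culture Vim, encoding the intermediate filament vimentin, stood at 9263 FPKM after 8672 FPKM, and Pdgfra, a receptor of mesenchymal cells, at 283 FPKM after 203 FPKM. Other markers kept less there, with Pdgfrb at 14.2%, Snai2 at 24.5%, Zeb2 at 31.1%, Cald1 at 31.9% and Fap at 44.6%, where the median member kept 26.1%. The markers named here were chosen after their values were seen. Thy1, a surface protein of fibroblasts, stood at 1433 FPKM after 1861 FPKM. In the wildtype culture Vim was at 2260 FPKM after 8800 FPKM, Pdgfra at 81.8 FPKM after 192 FPKM and Thy1 at 506 FPKM after 1907 FPKM. Dpt, encoding the matrix protein dermatopontin, stood at 3.41 and 120 FPKM at 3 weeks after 700.4 and 808 FPKM.

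Markers of other cells were read beside the matrix genes. All 12 macrophage markers were above 0 in both fibroblast libraries and in the AID-null-labelled culture, with summed FPKM of 1611 in wildtype fibroblasts, 2698 in AID-null-labelled fibroblasts and 1264 in that culture. In the wildtype culture the sum was 160, and Tyrobp, C1qa, C1qb, C1qc, Emr1, Aif1 and Ptprc were at 0. Much of the sums in the fibroblasts and the AID-null-labelled culture was Lyz2, at 1240 and 1466 FPKM in fibroblasts and 903 FPKM in that culture. In the wildtype culture Lyz2 was at 38.4 FPKM, and most of the sum there was Cd68. Cd68 was the only macrophage marker above its fibroblast level in the wildtype culture, at 112 FPKM after 85.3 FPKM. Mmp12, a protease of macrophages, stood at 3.51 and 32.1 FPKM at 3 weeks. Other tendon markers than Thbs4 were low in both cultures or differed less between them. Tnmd, encoding tenomodulin, was at 0 and 4.04 FPKM at 3 weeks after 541 and 813 FPKM, and Scx, a tendon transcription factor gene, at 3.95 and 7.72 FPKM after 61.5 and 47.8 FPKM. Smooth muscle and pericyte markers summed to 6078 and 7302 FPKM in fibroblasts and to 231 and 639 FPKM at 3 weeks. Of 8 cell cycle genes 8 were higher at 3 weeks in wildtype libraries and 6 in the AID-null-labelled ones, against 27.0% and 21.3% of all genes. Their sums were 382 and 589 FPKM in fibroblasts and 2785 and 2248 FPKM in the cultures.

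Pluripotency and epithelial markers differed less between the cultures than the matrix did. The 10 pluripotency markers summed to 7394 and 7222 FPKM at 3 weeks, with a median difference of -0.04, 0 higher and 1 lower (10.0% lower, against 11.5% of all genes). Dppa5a alone was at 3160 and 3264 FPKM. Differences were above 0 for 5 markers and below 0 for 5. The one past the threshold was Esrrb, at 414 and 174 FPKM, and Zfp42 was at 691 and 423 FPKM. The 10 epithelial markers summed to 1356 and 1547 FPKM at 3 weeks, with a median difference of 0.38. Of these 10, 2 were higher and 0 lower, against 9.76% and 11.5% of all genes. In fibroblasts 4 of them could be compared, and all 4 were higher in the AID-null-labelled library (median 3.43), against 4.26% of all genes. Krt8 was at 0 and 28.1 FPKM in fibroblasts and Krt18 at 0 and 34.1 FPKM. Primitive and parietal endoderm markers, from cells that make type IV collagen, laminin and Sparc, summed to 349 and 751 FPKM at 3 weeks. Most of that came from Lamb1 (149 and 383 FPKM) and Dab2 (106 and 207 FPKM). The endoderm regulators Gata4, Sox17 and Foxa2 stood at 3.20 to 18.7 FPKM in both cultures. Cartilage and bone markers summed to 462 and 676 FPKM in fibroblasts and to 176 and 223 FPKM at 3 weeks, with Bglap at 0 in both cultures. Most of the 3-week sums was Alpl, at 142 and 159 FPKM after 59.7 and 136 FPKM. Comp had 274 and 286 FPKM in fibroblasts. There 4 of 9 markers were higher in the AID-null-labelled library and 1 lower, against 4.26% and 1.34% of all genes. Ibsp was at 11.6 and 66.8 FPKM. Endothelial markers summed to 21.9 to 116 FPKM over the 4 libraries, skeletal muscle markers to 14.3 to 193 FPKM and trophoblast markers to 2.02 to 26.5 FPKM. Schwann and neural markers summed to 111 to 242 FPKM. Keratinocyte markers were lower in the AID-null-labelled culture in 5 of 7 cases, against 11.5% of all genes. They summed to 207 and 41.7 FPKM at 3 weeks, after 15.7 and 14.7 FPKM, with Krt6b at 96.2 and 0 FPKM and Krt6a at 33.3 and 0 FPKM. Their part in the matrix values was not tested.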

How the data were processed

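RNA was measured in 4 mouse libraries, 1 per group, grouped by sample title. The tools are TopHat and Cufflinks and the build is mm9, per the submitters' processing notes. The sources used here give no versions, annotation or use of strand. The authors deposited FPKM per gene, summing to 1708870 to 2012350 per library. Low values shared no common step, so no count model could be applied and the depth behind a value cannot be stated. The 10 methylation libraries were not used here, because their calls are on mm9 and the gene tables are on GRCm38.p6.

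Differences were taken as log2(FPKM + 1) with Python 3.11.15 and pandas 2.3.3. A gene entered a comparison with at least 1 FPKM on either side and was counted at a difference of 1. Shares of the fibroblast level used genes with at least 5 FPKM there. The functions were tested on simulated data with known shifts. Genes were named by role: the highest in fibroblasts, up to 2 with the largest 3-week difference, those against the majority, and those within 0.2 of the threshold. The remaining members are given for completeness. Up to 3 genes were named from each other list, except where the text says otherwise. The members and lists were chosen with earlier results of these data known. Other pseudocounts, filters, thresholds and scalings were tried. Protein sequences were not analysed here, and a check of the targeted gene is not reported here.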

Additional observations from a re-analysis of the deposited data

Results flagged for a closer look

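The members whose reprogramming change had opposite signs in the 2 genotypes were Tnc and Vcan. On the log2(FPKM + 1) scale Tnc differed by -0.69 in the wildtype and by 0.047 in the AID-null-labelled libraries, and Vcan by -1.71 and 0.51. Each value rests on 1 library per group, and the difference between the genotypes was not tested.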

How the results depend on the processing

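No paired analysis was possible because each RNA group had 1 library and no result comes from a test. Over all alternatives no member past the threshold changed sign. Upper-quartile scaling changed the median member difference to -3.78 (wildtype change), -1.74 (AID-null-labelled change), 0.17 (fibroblasts), 1.495 (3-week cultures) and 1.52 (difference of changes), and median-of-ratios scaling to -3.92, -1.81, 0.13, 1.54 and 1.58. For the 3-week cultures the median was 1.38 with a pseudocount of 0.1, 1.33 without a filter and 1.40 with at least 10 FPKM. Either scaling ended the call of Col4a1, Col5a3 and Fn1 as lower in the AID-null-labelled libraries (35 of 47 lower instead of 38). It moved the median over all genes by up to 0.19 (upper quartile) and 0.20 (median of ratios). At a threshold of 2, members lower numbered 23 and higher 1 in the AID-null-labelled change, higher 1 between fibroblasts, higher 16 between the 3-week cultures, and higher 15 and lower 0 in the difference of changes. Shares over all genes were taken only at a threshold of 1, so these counts have no background to be read against. The median share kept was 6.68% and 25.4% for members with at least 50 FPKM in fibroblasts, and 6.60% and 28.5% after median-of-ratios scaling. Without the 10 most abundant other genes the members took 12.6%, 13.8%, 2.37% and 6.79% of all FPKM in the fibroblasts and 3-week cultures, wildtype first, and without Spp1 (added after seeing the data) 11.5%, 12.7%, 1.12% and 3.41%. Without replicates or known depth, no error can be given for any of these values.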
